A study of Colocasia esculenta with 9 samples.

Results

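Of the 57034 gene models annotated on a taro assembly, 29272 had no fragment (a sequenced read pair) in any of 9 leaf libraries, which is 51.3% of the annotation. They were chosen by one rule on the measured values, a count of 0 in every library, and the remaining 27762 gene models, with at least 1 fragment in at least 1 library, served for comparison. Taro (Colocasia esculenta) is an aroid grown for its corm and leaves. The libraries came from the cultivars Niue, Palau 10 (Ngerruuch) and Sam-07 (Samasama), 3 libraries each, and the labels name no treatment that differs between them. The plants, started in tissue culture, were vegetative and 8 months old. Their chamber was held at 27 °C with humidity of 85% and 12 h of light, and the 2 youngest leaves were sampled. The labels do not say whether replicates were separate plants, so the spread between replicates may be technical.

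A gene model is a predicted set of exons on an assembly. In plants, a gene can lack RNA in a leaf because it is used only in roots, corms, flowers, seeds or under stress, and annotations also hold pseudogenes and open reading frames of transposable elements. Predictions backed by RNA often carry untranslated regions, whereas predictions from sequence alone tend to hold only the coding part. No names or products come with the gene models, so these kinds cannot be told apart here, and the leaf identity of the samples cannot be checked against marker genes. Here "silent" means a count of 0 in all libraries, not that a gene makes no RNA. With 108061321 fragments in all, 0 fragments allow up to 3, or 0.0278 CPM (fragments per 1000000 fragments of the total). This limit covers counting error only. The counting named no option to include fragments that map to several places or overlap more than 1 gene model, so a gene with near-identical copies could be at 0 and yet have RNA.

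Totals ran from 5468567 to 18175384 fragments per library. Between 33507 and 34861 gene models were at 0 in a single library, and each of these sets contains the 29272. Palau 10 replicate 3 stood apart: it alone had a fragment of 475 gene models that were at 0 in the other 8 libraries, against 182 to 333 for every other library. Without it the number of silent gene models was 29747, and without any other library it was at least 29454. Because the 0 rule chose the members, differences between silent and other gene models are given as descriptions, with no p-value over gene models, which are not replicates. The range beside a share is its lowest and highest value when the rule is applied to each of the 9 libraries alone. That is a looser rule on sets that all contain the silent gene models. The range therefore need not include the share and is not an error on it.

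Most gene models were seen either in no library or in all of them. Fragments were seen in all 9 libraries for 18429 gene models and in just 1 library for 2354, and each number of libraries from 2 to 8 held between 811 and 1214. Just outside the rule lay 1803 gene models with a single fragment over all libraries, 937 with 2 and 589 with 3. The longest of those with a single fragment were Taro_049106 (8 exons, summed exon length 5903 bp, of which 150 bp are shared with another gene model), with its fragment in Niue replicate 4, and Taro_029343 (5439 bp) and Taro_023755 (4937 bp), both with theirs in Niue replicate 3.

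The number of gene models expected at 0 declined with depth. If each fragment had been kept with a chance of 50%, 30532 gene models would be expected at 0, 1260 more than observed, and at 10% of the fragments 33605. Such thinning acts only on gene models that had fragments, so it does not speak to the RNA of the silent ones. In closed form, 95.5% of the gene models with fragments would thus already be seen at 50% of the depth. The curve was still falling at full depth, so deeper leaf libraries would be expected to add some gene models.

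**Figure D1:**
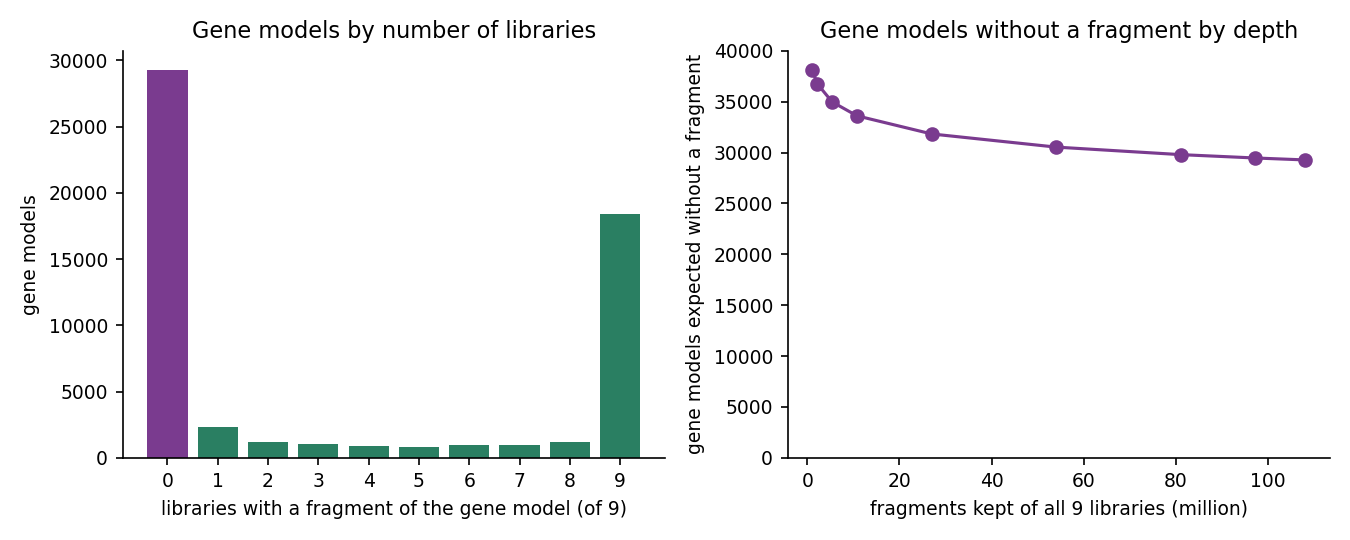
Left, gene models (y axis, count) by the number of the 9 libraries with a fragment (x axis), with the silent ones in purple. Right, gene models expected without a fragment (y axis, count) when a share of all fragments is kept (x axis, fragments in units of 1000000). The bar at 0 reaches 29272, the bar at 9 reaches 18429, and the curve falls from 38144 at 1% of the fragments to 29272 at all of them.

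Most gene models at 0 in a cultivar were at 0 in all libraries. In Niue 32188 gene models were at 0 in all 3 libraries, in Palau 10 31797 and in Sam-07 32049, and between 90.9% and 92.1% of each set was silent in all 9. Gene models at 0 in the 6 libraries of the other cultivars had a fragment in the remaining cultivar in 910 of 30182 cases for Niue (3.02%), 1125 of 30397 for Palau 10 (3.70%) and 980 of 30252 for Sam-07 (3.24%). The median of such gene models had a single fragment there. Thinned to the smallest total of 5468567 fragments, the libraries would show 21827 ± 586 gene models with a fragment in Niue, 21071 ± 643 in Palau 10 and 21116 ± 411 in Sam-07 (SD, n = 3 each). No difference among the cultivars was found beyond the spread between libraries (F = 1.75, exact one-sided permutation p = 0.279 over 280 divisions, with 0.0036 the smallest possible). Without Palau 10 replicate 3, F was 3.97 (exact one-sided permutation p = 0.129). With all libraries but no thinning, F was 0.219 (exact one-sided permutation p = 0.896). The replicate sets overlapped, with Palau 10 replicate 3 at 21809 above Niue replicate 2 at 21156. After thinning, the libraries with the smallest totals were the highest, Niue replicate 4 at 22231 and Niue replicate 3 at 22095. Before thinning, Niue replicate 4 had 22231 and Niue replicate 3 had 22284, and Palau 10 replicate 3 was the highest at 23527. The library with the largest total, Sam-07 replicate 2, was at 20654. Cultivar and library total thus cannot be told apart in the Niue mean.

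Silent gene models were short. Their median Length, the summed exon length, was 656 bp (interquartile range 425 to 1028), against 1242 bp (712 to 1952) for gene models with fragments. For single libraries the medians were 672 to 681 bp at 0 and 1340 to 1388 bp with fragments. The sets at 0 all contain the silent gene models, so their narrow spread is partly fixed in advance. Over 200 and up to 300 bp, 75.7% of 3532 gene models were silent. That share declined in each longer class, to 19.04% of 5483 gene models over 2000 and up to 3000 bp and 8.54% of 246 above 5000 bp. A longer gene model offers more bases to catch a fragment, and the part of this in the difference was not tested. Gene models with 1 fragment in all had a median Length of 816 bp, those with 2 to 10 had 721 bp, and those with over 10000 had 1910 bp. The genomic span, introns included, had a median of 2265 bp for silent gene models and 3779 bp for those with fragments, and the longest spans were 44447 and 60723 bp.

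Exon number followed a curve with a low start. Of the gene models with a single exon, 30.5% of 3860 were silent (40.6% to 46.6% at 0 in single libraries). Those with 2 exons were silent most often, at 65.0% of 14392 (73.0% to 76.2%), followed by those with 3 exons at 61.99% of 11927. The share then declined to 14.9% of 335 gene models with 14 exons and was higher again at 32.9% of 428 gene models with 20 or more exons (35.3% to 36.9% in single libraries). Silent gene models thus held 4.03% with a single exon and 57.2% with 2 or 3 exons, against 9.66% and 34.5% of the gene models with fragments. The median was 3 exons for silent gene models and 4 for the others. The plus strand held 49.8% of the silent gene models and 49.6% of those with fragments, and that difference of 0.145 percentage points changed sign under other settings.

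**Figure D2:**
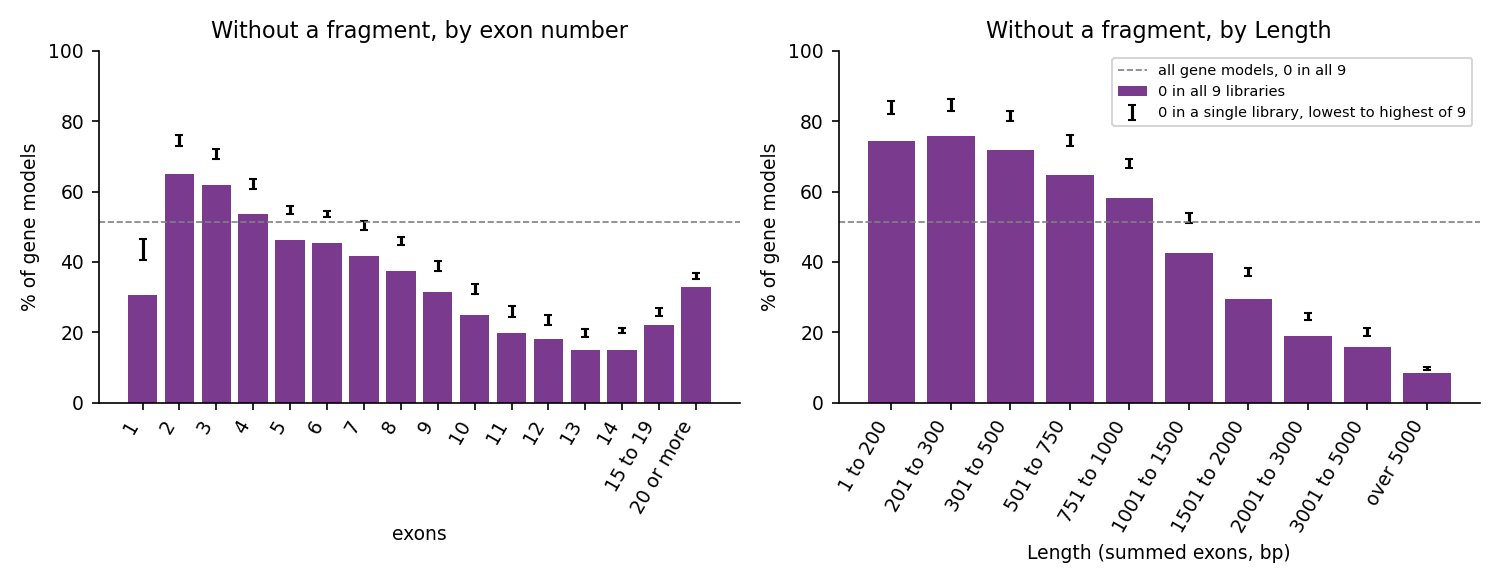
Bars give the percentage of gene models at 0 in all 9 libraries (y axis) by number of exons (left) and by Length in bp (right), whiskers give the lowest and highest percentage at 0 in a single library, and the dashed line marks 51.3%. The single-exon bar (30.5%) stands far below the 2-exon bar (65.0%), and from the class over 200 and up to 300 bp the share declines with Length.

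The low share among single-exon gene models was present in each class of Length. Up to 500 bp, 51.7% of 1309 single-exon gene models were silent, against 75.1% of 12495 with 2 or more exons. Over 500 and up to 1000 bp the shares were 31.9% for single-exon gene models and 63.8% for the others, and over 1000 and up to 1500 bp 13.8% and 44.5%. Above 2000 bp they were 6.30% of 365 and 18.4% of 7647. The longest single-exon silent gene models were Taro_017732, 3201 bp on the minus strand of TARO_scaffold_000814 (384860 to 388060), and Taro_036464, 3045 bp on the plus strand of TARO_scaffold_003081 (7234 to 10278). Each lies on a scaffold with other gene models, 29 in all on the first and 12 on the second. The kit keeps strand but the counting did not use it, so RNA of either strand on a gene model's exons was counted.

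Intron size was also related to the silent share. Among gene models with 2 or more exons, the longest intron had a median of 963 bp (interquartile range 226 to 4050) in silent gene models and 1610 bp (532 to 3549) in those with fragments, with the wider interquartile range in the silent ones. Where the longest intron had 100 bp or less, 71.2% of 4908 gene models were silent. With a longest intron over 1000 and up to 2000 bp the share was 37.1% of 8083, and above 5000 bp it was 59.3% of 9320. The contrast was greatest in long gene models. Up to 500 bp of Length, 75.2% of 1567 gene models with introns of at most 100 bp were silent. With a longest intron over 1000 and up to 2000 bp, 67.4% of 1500 were. Over 500 and up to 1000 bp of Length, the shares for these 2 intron classes were 72.4% of 1897 and 50.9% of 2334. Above 2000 bp of Length, 254 of 380 gene models with introns of at most 100 bp were silent (66.8%, and 76.1% to 79.5% at 0 in single libraries), against 166 of 1599 with a longest intron over 1000 and up to 2000 bp (10.4%, and 13.5% to 15.8%). With a longest intron over 5000 bp, 86.2% of 2339 gene models up to 500 bp of Length were silent and 13.1% of 1332 over 2000 bp.

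**Figure D3:**
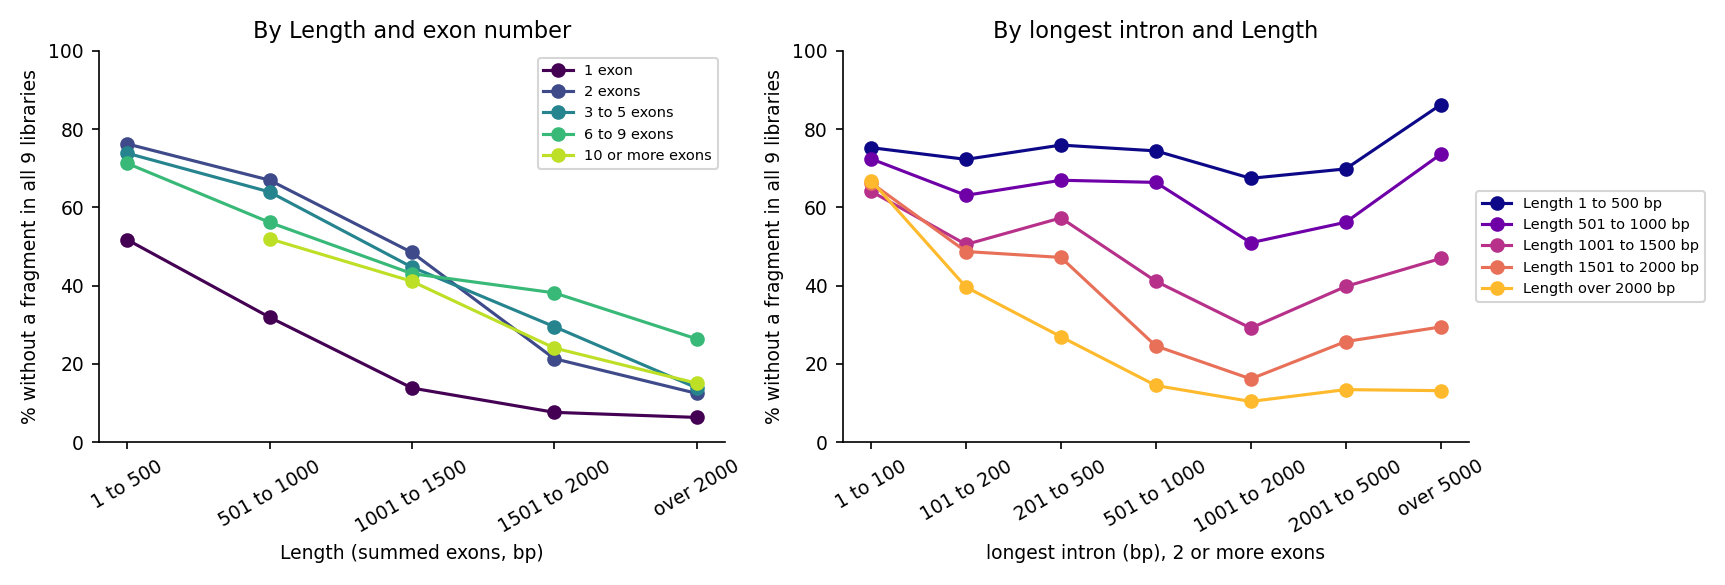
Left, percentage of gene models without a fragment in all 9 libraries (y axis) by Length class (x axis, bp), with a line per exon number. Right, the same percentage by longest intron (x axis, bp) with a line per Length class. Single-exon gene models form the lowest line in every Length class, and gene models over 2000 bp range from 66.8% with introns up to 100 bp to 10.4% with a longest intron over 1000 and up to 2000 bp.

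Internal exons whose length is a multiple of 3 leave the reading frame unchanged when they are left out. Such exons made up 48.5% of 54410 internal exons in silent gene models, against 44.0% of 89401 in gene models with fragments (48.3% to 48.7% at 0 and 43.2% to 43.6% with fragments in single libraries). The excess lay with longest introns of at most 500 bp. Where the longest intron had at most 100 bp, 78.7% of the internal exons of 1585 silent gene models were multiples of 3, against 65.8% of those of 449 gene models with fragments. Over 100 and up to 500 bp the shares were 62.8% of 11883 internal exons and 50.2% of 7587. Over 500 and up to 2000 bp they were 42.8% of 13478 and 42.6% of 29510. Where it exceeded 2000 bp the order was the opposite, with 40.3% of 25229 in silent gene models and 43.4% of 51303 in gene models with fragments. Introns of at most 60 bp were themselves multiples of 3 in 41.8% of 5030 cases in silent gene models, against 33.2% of 3129 in gene models with fragments. They made up 6.10% of the introns of silent gene models and 2.73% of the introns of the others. Introns over 60 and up to 100 bp were multiples of 3 in 33.9% of 22520 cases in silent gene models, against 33.1% of 24096. In all classes over 60 bp the share was 33.2% to 36.3% in silent gene models and 32.8% to 34.3% in the others. In the 254 long silent gene models with introns of at most 100 bp, 86.4% of the internal exons were multiples of 3, with a median of 6 exons. In the 126 with fragments the share was 81.6%, with a median of 2 exons and of 83.5 fragments over all libraries.

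The Length itself was a multiple of 3, as for a coding sequence without untranslated regions, in 64.8% of silent gene models and 58.9% of those with fragments. By level the share was 68.9% at 1 fragment and 71.9% at 2 to 10 fragments, and it declined in each higher class to 41.9% above 10000 fragments. Among silent gene models that are isolated between neighbours with fragments it was 68.9%, and in silent runs of 10 or more 60.7%. The labels do not say how the annotation was built.

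The longest silent gene models show these classes. Taro_016810, the longest, has 34 exons and 7161 bp of exons on the minus strand of TARO_scaffold_000752 (343820 to 365954). Taro_008976 (7036 bp, minus strand of TARO_scaffold_000306, 479958 to 487371) and Taro_018618 (7009 bp, minus strand of TARO_scaffold_000871, 334607 to 341993) come next, and both have 6 exons. Read from the 5′ end, the internal exons of both are 165, 375, 93 and 141 bp, and the introns of both are 79, 77, 77, 75 and 70 bp. They differ in the outer exons, 5566 and 696 bp in Taro_008976 and 5540 and 695 bp in Taro_018618. All 4 internal exons are multiples of 3. The most exons among silent gene models, 39, were found in Taro_024268 (plus strand of TARO_scaffold_001366, 78741 to 95444) and Taro_038953 (plus strand of TARO_scaffold_003548, 85667 to 112140), followed by 36 in Taro_015121. The greatest spans were those of Taro_027237 (44447 bp, 25 exons, minus strand of TARO_scaffold_001691), Taro_033867 (36946 bp, 19 exons) and Taro_047036 (35918 bp, 20 exons). Of the last, 120 exon bp are shared with another gene model.

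Gene models with the same list of exon lengths as another, here called twins, were mostly silent. With 3 or more exons, 246 gene models in 110 groups had a twin, and 200 of them were silent, or 81.3% (86.2% to 91.5% at 0 in single libraries), against 48.1% of 38536 without a twin (55.1% to 57.3%). Without Palau 10 replicate 3 the difference was 34.4 percentage points, against 33.2 with it. In 83 groups all gene models were silent, in 13 none and in 14 some, and only 2 groups lay within 1 scaffold. The largest groups went different ways. Taro_017505, Taro_020612, Taro_022622 and Taro_035153, on 4 scaffolds, have exons of 66, 215 and 641 bp and were silent, and their twin Taro_049548 had a single fragment. The 5 gene models with exons of 28, 313, 8 and 249 bp all had fragments, namely 135 in Taro_000649, 91 in Taro_041913, 10 in Taro_048396, 37 in Taro_051622 and 147 in Taro_056713. Another likeness was chosen after the pair of long gene models above was seen. It required the same lengths of internal exons and of introns, whatever the outer exons, in gene models of 4 or more exons. It gave 119 gene models, of which 81 were silent (68.1%), against 42.1% of the other 26736. The silent pair that prompted it is among the 81. The largest group had 6 members, all silent. Twins are also where fragments that map to several places may go uncounted, and the part of this in their zeros was not tested.

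Overlap had a smaller and mixed relation. Of 2736 gene models that share exon bases with another, 46.6% were silent, against 51.6% of 54298 that share none. The 52 gene models whose every exon base is shared were all silent. The counting command names no option to include fragments that overlap more than 1 gene model. Their zeros can therefore be set by the counting and do not speak to their RNA. With at least 50% but not all bases shared, 57.0% of 442 were silent, and the part of the counting in this was not tested.

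Silent gene models clustered along scaffolds. Beside a silent next neighbour 71.1% of 21977 gene models were silent (77.3% to 79.2% at 0 in single libraries), against 27.3% of 23468 beside a neighbour with fragments (36.2% to 40.4%). With both neighbours silent the share was 82.2% of 11255, with 1 of them silent 47.9% of 12810, and with neither 15.4% of 13758. Among gene models of 500 to 1500 bp the shares were 73.4% beside a silent neighbour and 30.8% beside a neighbour with fragments. Beside a silent neighbour 71.1% were silent on the same strand and 71.0% on the opposite strand, and beside a neighbour with fragments 26.2% on the same strand and 28.6% on the opposite strand. At 5 places along the scaffold from a silent gene model the share was 57.3%, and from one with fragments 34.2%. At 20 places these were 51.5% and 33.2%, measured on the larger scaffolds that hold such distances.

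The relation to neighbours was also described with the gene model itself read in libraries that the rule had not used. Each cultivar was left out in turn, and gene models at 0 in the other 6 libraries were sorted by their neighbours in those 6. With both neighbours at 0, a fragment turned up in the left-out cultivar for 1.88% of 9831 gene models in Niue, 2.24% of 9935 in Palau 10 and 2.02% of 9874 in Sam-07. With both neighbours above 0 the shares were 9.30% of 2182 in Niue, 10.3% of 2107 in Palau 10 and 9.35% of 2108 in Sam-07. The ranges did not overlap among the 3 cultivars, but the comparisons share libraries and are not independent repeats. By structure the contrasts were smaller. Single-exon gene models were seen in the left-out cultivar in 3.83% to 7.82% of cases and those with 3 or more exons in 3.04% to 3.97%, so these ranges overlapped, although the single-exon share was the higher in each of the 3 cultivars. Gene models up to 500 bp were seen in 2.07% to 2.78% of cases and those over 2000 bp in 3.64% to 5.42%.

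**Figure D4:**
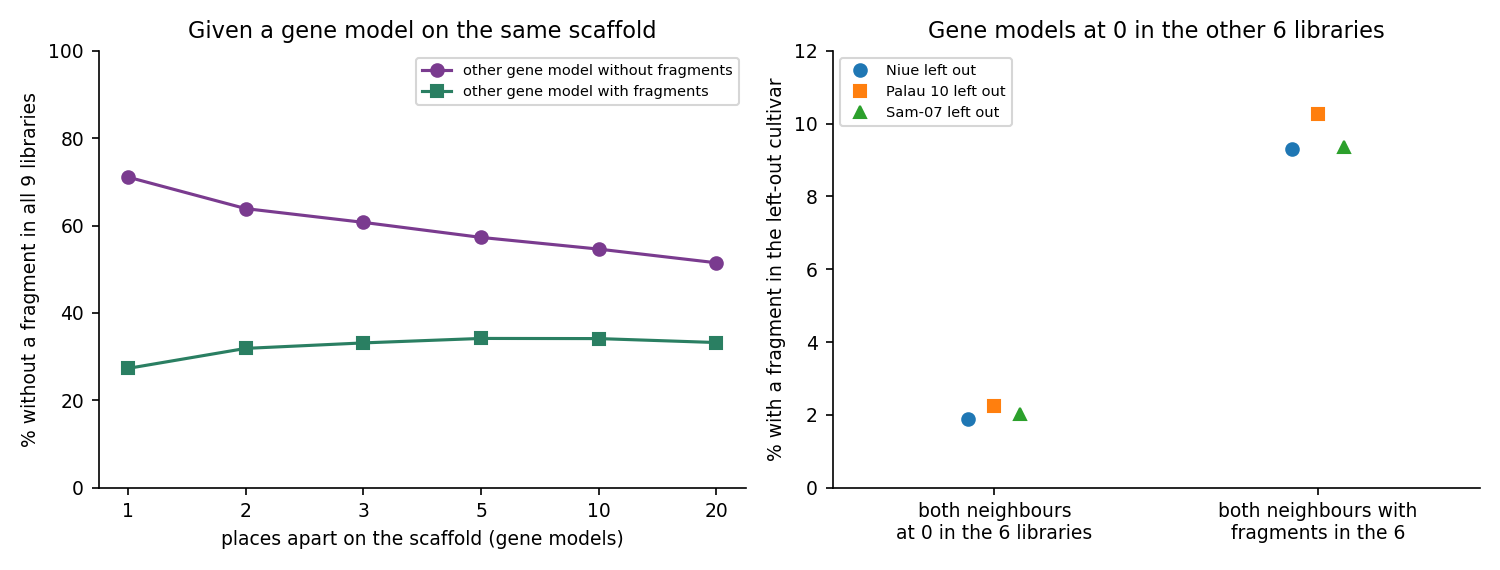
Left, percentage of gene models without a fragment in all 9 libraries (y axis) by places along the scaffold (x axis, gene models), given another gene model without (purple) or with fragments (green). Right, percentage of gene models at 0 in 6 libraries that had a fragment in the left-out cultivar (y axis), by the state of both neighbours in the 6 libraries. The left-out cultivars lie between 1.88% and 2.24% with both neighbours at 0 and between 9.30% and 10.3% with both above 0.

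The silent share also differed with distance and scaffold size. The gap between neighbours had a median of 15029 bp where both were silent, 15445 bp where 1 was silent and 6854 bp where both had fragments. Of gene models at least 50000 bp from the next, 68.4% of 4673 were silent, against 31.9% of 2520 at 1000 bp or more but under 2000 bp. At closer range the share was higher again, at 34.9% of 1354 from 500 bp to under 1000 bp, 43.7% of 2180 under 500 bp and 46.3% of 2060 with overlapping spans. Scaffolds with a single gene model had 69.7% of 3967 gene models silent (76.1% to 78.3% at 0 in single libraries), and scaffolds with 20 or more had 41.5% of 13926 (49.4% to 52.1%). Within 500 to 1500 bp of Length the shares were 71.4% and 45.8%. On scaffolds of 5 or more gene models, the first and last were silent in 54.0% of 7364 cases and the others in 45.2% of 34942. In total, 4754 of 11589 scaffolds had no gene model with fragments. They hold 9222 gene models, 31.5% of the silent ones, and 2764 of these scaffolds have a single gene model.

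Large scaffolds differed widely. Over the 475 scaffolds with 20 or more gene models, the silent share had a median of 37.9% and an interquartile range of 20% to 60.7%, with 47 scaffolds above 80% and 31 below 10%. Scaffolds at 80% or more had a median of 2.996 gene models per 100 kb of annotated extent, against 6.58 for those at 20% or less. Only 2 such scaffolds were silent throughout. TARO_scaffold_000063 has 24 gene models, Taro_002621 to Taro_002644, between 50752 and 921612, 10 on the plus and 14 on the minus strand, with 1 to 9 exons. TARO_scaffold_000105 has 21, Taro_003960 to Taro_003980, between 14671 and 865239, 10 on the plus and 11 on the minus strand.

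The silent gene models formed 13650 runs of consecutive members, and 75.1% of them stood in a run of 2 or more. Runs of 10 or more numbered 167 and held 2195 gene models, 7.50% of the silent ones, and 46 of these runs fill their scaffold. The number depended on the rule, with 271 runs where at most 3 fragments counted as silent, 301 with fewer than 10, and 282 to 313 at 0 in single libraries. Gene models with fragments formed 347 runs of 10 or more, with 4644 gene models or 16.7% of theirs. The longest silent run had 34 members and the longest run with fragments 32. Across run lengths the median Length was 640 bp for the 2113 isolated ones between neighbours with fragments and 663 bp in runs of 10 or more. Isolated ones had a single exon in 7.38% of cases, against 2.73% in runs of 10 or more, and their longest introns had a median of 836 bp, against 1498 bp. Neighbours within the long silent runs lay a median of 18436 bp apart, against 5833 bp in long runs with fragments and 11300 bp over all neighbours. In the long silent runs 46.7% were on the same strand, against 52.6% in long runs with fragments and 50.7% over all neighbours. In silent runs of 2 to 4 and of 5 to 9 the same-strand shares were 50.3% and 50.2%.

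**Figure D5:**
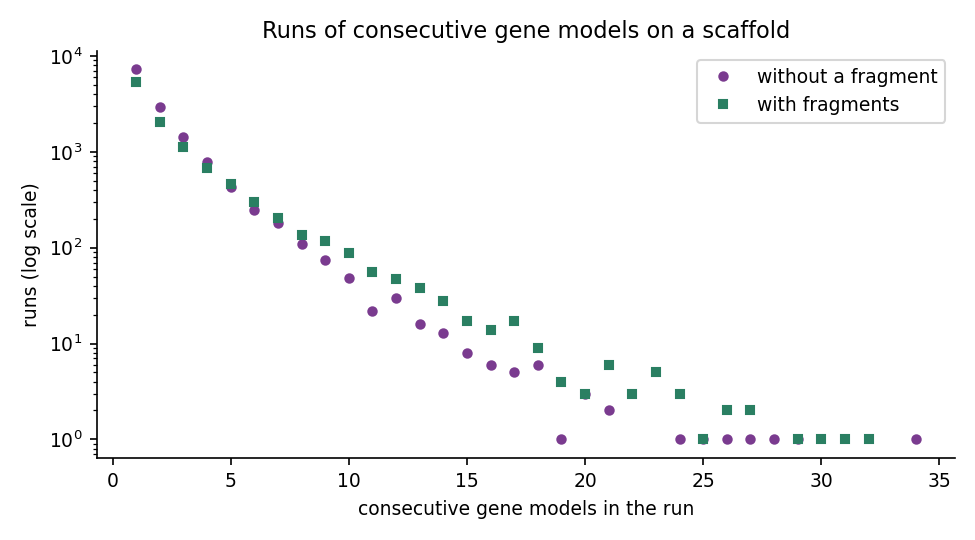
Number of runs (y axis, log scale) by the number of consecutive gene models in the run (x axis), for gene models without a fragment (purple circles) and with fragments (green squares). Single silent gene models are the most frequent, and at every length from 5 to 19 runs with fragments are the more numerous, with 167 silent runs of 10 or more and 347 with fragments.

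The longest run, Taro_000158 to Taro_000191, extends over 1453540 bp of TARO_scaffold_000003, from 458074 to 1911613, to the last gene model annotated there. Its 34 gene models have 1 to 17 exons (median 3) and Lengths of 249 to 4358 bp (median 661), with 19 on the plus and 15 on the minus strand. The scaffold has 45 gene models, 43 of them silent, and the other 2, Taro_000147 and Taro_000157, had 1 fragment each. The run of 29 on TARO_scaffold_000001, Taro_000039 to Taro_000067 (1264619 to 2204102), has a sharp edge. Next to it on the left lies Taro_000038, with 10 exons and 2085 bp, whose level was 93.8 ± 15.2 CPM in Niue libraries, 122 ± 53.9 CPM in those of Palau 10, and 108 ± 42.3 CPM for Sam-07 (SD, n = 3 each). On the right lies Taro_000068, with a single fragment in all. The run of 28 on TARO_scaffold_000011, Taro_000561 to Taro_000588 (102643 to 1252104), is bounded by the only gene models with fragments on that scaffold, whose other 40 gene models were silent. Of these, Taro_000560 averaged 3.02 ± 0.46 CPM in Niue libraries, 8.77 ± 0.242 CPM in those of Palau 10, and 6.74 ± 5.50 CPM for Sam-07, where replicate 2 had 13.1 CPM and the mean without it was 3.56 CPM. Taro_000589 averaged 11.7 ± 3.78 CPM in Niue libraries, 24.3 ± 15.4 CPM in those of Palau 10, and 12.8 ± 5.03 CPM for Sam-07. Palau 10 replicate 3 had 42.0 CPM, and the Palau 10 mean without it was 15.5 CPM.

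Gene models with fragments inside silent stretches were mostly low, but a few were abundant. Of 2117 gene models whose 3 neighbours on each side were all silent, 85.9% were silent, and of the 299 with fragments 118 averaged 1 CPM or more (39.5%, against 63.7% of all gene models with fragments). Their median total was 15 fragments, against 507 for all gene models with fragments. The most abundant was Taro_008034, with 2 exons and 759 bp on the minus strand of TARO_scaffold_000260 (204634 to 205566). It had 1418, 140.0 and 1046 CPM in Niue replicates 2, 3 and 4. In Palau 10 replicates 1, 2 and 3 it had 4519.8, 1676 and 2480.0 CPM. In Sam-07 replicates 1, 2 and 3 it had 1771, 56.9 and 2269.9 CPM. Its level varied widely within each cultivar. The Sam-07 values overlapped those of both other cultivars, while every Niue value lay below every Palau 10 value. The next 3 varied less between replicates. Taro_019708 (6 exons, TARO_scaffold_000958) averaged 894 ± 215 CPM in Niue libraries, 914 ± 238 CPM in those of Palau 10, and 1353 ± 170 CPM for Sam-07 (SD, n = 3 each). Taro_003343 (13 exons, TARO_scaffold_000086) averaged 971 ± 268 CPM in Niue libraries, 793 ± 242 CPM in those of Palau 10, and 849 ± 262 CPM for Sam-07. Taro_017574 (4 exons, TARO_scaffold_000804) averaged 491 ± 71.5 CPM in Niue libraries, 485 ± 91.9 CPM in those of Palau 10, and 562 ± 75.6 CPM for Sam-07.

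Silent gene models also lay among gene models with fragments. Of 744 gene models whose 6 nearest neighbours all averaged 1 CPM or more, 84 were silent, or 11.3%, with a median Length of 725 bp. The longest was Taro_019069, with 17 exons and 4884 bp on the minus strand of TARO_scaffold_000909 (101514 to 108833), among neighbours averaging 12.9 to 392 CPM. It was followed by Taro_006157 (13 exons, 2709 bp, plus strand of TARO_scaffold_000180, 334680 to 339695), with neighbours at 4.96 to 72.1 CPM, and by Taro_006987 (10 exons, 2190 bp, plus strand of TARO_scaffold_000216, 560692 to 565752), with neighbours at 1.82 to 2102 CPM. None of these 3 shares an exon base with another gene model.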

How the data were processed

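A CTAB extraction of 4 g of leaf, 40 h of drying and a stranded TruSeq kit are given per the labels' protocols. The submitters' processing notes name bcl2fastq 1.8.4, Trimmomatic 0.33, STAR (given as 3.5.0a), featureCounts and Subread 1.4.6. Per the file headers, featureCounts 1.4.6-p4 made the deposited counts of fragments over exons per gene model, and the command names no option for strand, for fragments that map to several places or for those that overlap more than 1 gene model. The other deposited value, Length in bp, is in the same files. The genome build: not given in the sources used here. Coordinates count from 1.

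Groups came from the titles. Neighbours were ordered by first exon base on a scaffold. CPM is the count per 1000000 fragments of the library total, and TMM factors came from edgeR 4.0.16 in R 4.3.3. Expected numbers at lower depth are closed-form binomial thinning. Other work used Python 3.11.15, numpy 2.4.6 and pandas 2.3.3, and the functions were tested on simulated data. One test was run, an exact permutation of F over 280 divisions of the libraries.

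The members, the lists and the classes were chosen with earlier results of these data known. Named gene models follow a rule on rank: the 3 longest runs with their bounds, the extremes of exons, Length and span, the longest with 1 fragment, those set among neighbours of the other kind, the largest scaffolds without fragments and the largest twin groups. The left-out cultivar comparison by neighbours and Length, the joint classes of Length with exons and introns, and the frame of exons and introns were added after seeing the data. Alternatives were lower limits of 3 and 10 fragments, 0.1 CPM limits, subsets by overlap, scaffold and Length, and leaving out each library. For the cultivar test they were also no thinning, at least 3 expected fragments, the 5 most abundant gene models left out, and a block on replicate number.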

Additional observations from a re-analysis of the deposited data

How the results depend on the processing

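Leaving out each library in turn kept the direction of every result it was run on. The silent count was then 29454 to 29747, the runs of 10 or more 171 to 181, the twin difference 32.6 to 34.4 percentage points, moved beyond the spread only without Palau 10 replicate 3 (34.4), and the cultivar F 0.65 to 3.97, with no call in any. Differences given next for Length, span, plus strand and single-exon share are silent minus other. Those for scaffold size, neighbours, twins and shared exon bases are instead differences in silent share between classes of gene models. The share subtracted is that on large scaffolds, beside a neighbour with fragments, without a twin and without shared exon bases.

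With at most 3 fragments counted as silent, median Length differed by -646 bp, span by -1792 bp, plus strand by -0.018 points (reversed), scaffolds with 1 against 20 or more gene models by 27.4 points and shared exon bases by -4.41 points, with 271 long runs. With fewer than 10 fragments the values were -712 bp, -2063 bp, -0.025 points (reversed), 26.0 and -3.46 points, single-exon share -5.25 points, neighbours 39.1 points, and 301 runs. Under 0.1 CPM by library size, Length was -610 bp, span -1640 bp and plus strand -0.15 points (reversed), and with TMM factors -607 bp, -1621 bp and 0.0077 points. On scaffolds with 5 or more gene models the single-exon share was -5.22 points, span -1582 bp, plus strand 0.55, twins 38.2 and shared bases -3.81 points. Within 500 to 1500 bp the single-exon share was -7.33 points, scaffold size 25.6 points and long runs 49, with fewer gene models in the order. The likeness by internal exon and intron lengths, chosen after seeing the data, gave 25.9 points for twins. The cause of the other shifts was not tested. Single gene model scaffolds give no value on scaffolds of 5 or more, nor shared bases without sharing.

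Blocking on replicate number, the cultivar comparison gave F = 1.54 (exact one-sided permutation p = 0.361 over 72 arrangements). Counting gene models expected with at least 3 fragments, it gave F = 2.06 (exact one-sided permutation p = 0.189). Leaving out the 5 most abundant gene models, it gave F = 1.94 (exact one-sided permutation p = 0.221). The same-numbered libraries did not deviate together in each pair (r from -0.57 to 0.43 across 13592 gene models). Differently numbered libraries were not compared, so this check cannot say whether the numbers pair the libraries. Zeros cannot show levels under the floor of 3 fragments.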
